A study of Mus musculus with 6 samples.

Results

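The WNK kinase pathway of the distal nephron was followed through 10 genes: the kinases Wnk1, Wnk4, Stk39 and Oxsr1, the ubiquitin ligase genes Klhl3, Cul3 and Nedd4l, and the cotransporters Slc12a1, Slc12a2 and Slc12a3. They were chosen by name, and all 10 were found among the 20138 genes of the authors' deposited table. RNA came from whole kidneys of mice at postnatal day 35. Pkd2-miR-214-KO mice (3 animals) carried the Pkhd1Cre transgene, floxed Pkd2 on both alleles (Pkd2 F/F) and a null allele of miR-214 (miR-214null). Pkd2-KO mice (3 animals) carried the same Pkhd1Cre transgene and Pkd2 F/F without the miR-214 null allele. Every animal therefore lacked Pkd2, which encodes the cation channel polycystin-2, in the cells where the Pkhd1 promoter had driven Cre, chiefly collecting duct and other tubule cells, and no kidney with intact Pkd2 was part of the comparison. The comparison asks how RNA levels in these cystic kidneys differ when miR-214 is missing. The labels give neither sex nor litter.

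WNK kinases sense chloride and potassium in tubule cells. They phosphorylate and activate SPAK (encoded by Stk39) and OSR1 (encoded by Oxsr1), which in turn phosphorylate the sodium-chloride cotransporters and raise their activity. KLHL3 is the adaptor that brings WNK kinases to the cullin-3 ubiquitin ligase for degradation, and in people mutations of WNK1, WNK4, KLHL3 or CUL3 cause familial hyperkalemic hypertension. The pathway thus acts mainly through phosphorylation and protein turnover, which RNA levels do not measure. NKCC2 (Slc12a1) is the apical cotransporter of the thick ascending limb and the target of furosemide, NCC (Slc12a3) is that of the distal convoluted tubule and the target of thiazides, and NKCC1 (Slc12a2) brings chloride into secretory epithelia from their basolateral side.

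The deleted microRNA is shown first, with the places in the pathway's transcripts that match its seed, since a microRNA represses transcripts through such matches. Both arms of miR-214 lie on chromosome 1 on the plus strand (GRCm38.p6, sequences from RefSeq), and the capitals mark the seed, bases 2 to 8 from the 5′ end.
mmu-miR-214-3p (chr1:162223438-162223459): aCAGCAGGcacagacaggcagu
mmu-miR-214-5p (chr1:162223397-162223418): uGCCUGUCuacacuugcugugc
A match to the whole 3p seed is CCTGCTG in the transcript, searched on the sense strand of the longest annotated 3′ UTR of each gene (GENCODE M21, assembly of mm10). Of the 10 pathway genes, 3 held at least 1 such match, Slc12a1 with 1, Oxsr1 with 1 and Nedd4l with 2, against 21.3% of the 16915 genes of the table that have an annotated 3′ UTR. Slc12a1 also held the 1 match to the 5p seed (GACAGGC) found among the members, a match that 9.39% of the 16915 genes held. The windows below show the matches in Slc12a1 and Oxsr1 in capitals, as transcribed.
Slc12a1, 3p match, bases 441 to 447 of a 3′ UTR of 1140 bases (chr2:125229291-125229320, plus strand): cataggaaaaggCCTGCTGggtcagtggcc
Slc12a1, 5p match, bases 397 to 403 of the same 3′ UTR (chr2:125229247-125229276, plus strand): taagttcttattGACAGGCtggtatggtga
Oxsr1, 3p match, bases 399 to 405 of a 3′ UTR of 2710 bases (chr9:119240726-119240755, minus strand): tgctctcccgcaCCTGCTGggacatgagca
The letters alone do not show that a match is a working site. The longest annotated 3′ UTRs of Wnk1, Wnk4, Stk39, Klhl3, Cul3, Slc12a2 and Slc12a3 held 0 matches to the whole seed of either arm. Other transcripts and coding sequence were outside this search. With shorter sites of 6 bases, CTGCTG for 3p stood in 5 of the 10 members (Wnk1, Oxsr1, Klhl3, Nedd4l and Slc12a1) and in 48.9% of all genes with a 3′ UTR, and ACAGGC for 5p in 5 members (Stk39, Oxsr1, Klhl3, Slc12a1 and Slc12a3) and in 29.7% of all.

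None of the pathway genes passed the authors' test. At an adjusted p under 0.05 in the authors' deposited table (edgeR likelihood ratio test) 0 of the 10 were called, where 0.124% of all genes were (25 of 20138, of which 21 had positive and 4 negative folds). An unadjusted p under 0.05 was likewise found for 0 of the 10, against 4.82% of all genes (970 of 20138). The members' log2 folds ran from -0.70 to 0.39 with a median of 0.02, where the median over all genes was 0. A positive log2 fold means a higher level in Pkd2-miR-214-KO than in Pkd2-KO. That direction was read from the deleted gene itself, since Mir214 had a fold of -7.62 ± 1.08 on the log2 scale in the authors' deposited table. Errors here and below are approximate standard errors (SE) obtained from each fold and its likelihood ratio, and each rests on 3 animals per genotype. Values per library were not analysed here, so the values of the single animals and the overlap of the groups cannot be given.

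**Figure D1:**
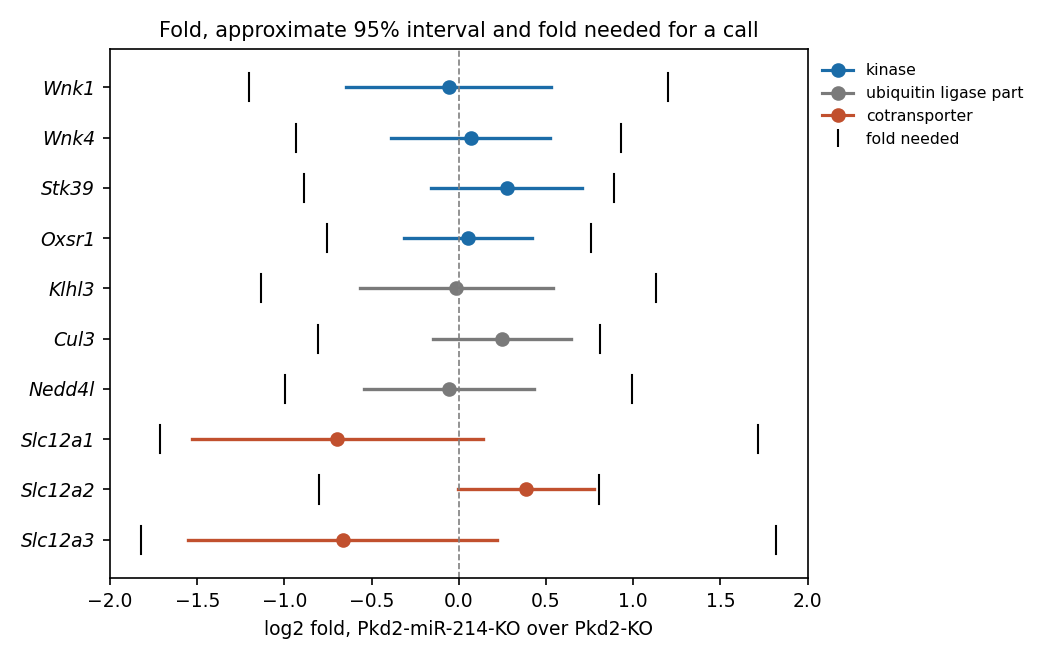
Points give the log2 fold of each gene in the authors' deposited table (Pkd2-miR-214-KO over Pkd2-KO, x axis), coloured lines the approximate 95% interval, and black ticks the fold that the gene would have needed to be called. Slc12a1 (-0.70) and Slc12a3 (-0.67) lie farthest to the left with the widest intervals, Slc12a2 (0.39) lies to the right, and 0 of the 10 points reaches its tick.

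Some facts of the whole series bear on all of these values. Markers of the labelled tissue were abundant, with a mean log2 CPM (counts scaled to library size, by the authors, over all libraries) of 11.4 for Umod of the thick ascending limb, 11.3 for Slc34a1 of the proximal tubule and 8.39 for Aqp2 of the collecting duct. Pkd2, deleted in both genotypes, had a fold of -0.11 ± 0.23 on the log2 scale in the authors' deposited table. The female-specific transcript Xist had a log2 fold of 10.21 ± 2.36 there and was among the called genes (likelihood ratio test, adjusted p = 0.0168). The Y-linked genes Ddx3y, Kdm5d, Eif2s3y and Uty had log2 folds from -0.66 to -0.14 there, with SEs from 1.40 to 1.66. Without the sex of each animal, its part in the values below cannot be told apart from genotype and was not tested.

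The WNK kinases among the members, Wnk1 and Wnk4, had log2 folds close to 0. Wnk1 (chromosome 6, 119923969 to 120038672, minus strand) had a fold of -0.06 ± 0.30 on the log2 scale in the authors' deposited table, with an approximate 95% interval of -0.64 to 0.53. Wnk1 reads include those of a short kidney-specific transcript that lacks the kinase domain, so the value does not separate the active kinase from it. Wnk4 (chromosome 11, 101260567 to 101277409, plus strand), the WNK kinase most closely tied to NCC, had a fold of 0.07 ± 0.23 on the log2 scale in the authors' deposited table, with an interval of -0.39 to 0.52. Of its exon bases, 7.38% (306 bases) overlap the antisense gene Gm11615, and whether the authors' counting used strand is not given in the sources used here.

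The downstream kinases had positive folds that did not pass. In the authors' deposited table Stk39 (chromosome 2, 68210445 to 68472268, minus strand) had a log2 fold of 0.27 ± 0.22 (unadjusted p = 0.215, interval -0.16 to 0.71). Oxsr1 (chromosome 9, 119238432 to 119322427, minus strand), the closest relative of Stk39 and a holder of a 3p seed match, had 0.05 ± 0.19 there, with an interval of -0.32 to 0.42. The interval of Oxsr1 spans linear folds of 0.803 to 1.34, the narrowest among the members. The log2 folds of Stk39 and Oxsr1 differ by 0.22. This difference carries no test, because the covariance of the genes across animals is not known.

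Among the ligase genes was the log2 fold closest to 0 of all members. Klhl3 (chromosome 13, 58000228 to 58113592, minus strand), the substrate adaptor for WNK kinases, had a fold of -0.01 ± 0.28 on the log2 scale in the authors' deposited table, with an interval of -0.57 to 0.54. Cul3 (chromosome 1, 80264923 to 80340480, minus strand), the scaffold of the same ligase, had 0.25 ± 0.20 (unadjusted p = 0.218) in that table. Cul3 serves many other adaptors, so its level is not particular to the WNK pathway. Nedd4l (chromosome 18, 64887705 to 65217828, plus strand), which marks the epithelial sodium channel and NCC for removal from the membrane, had -0.05 ± 0.25 in the authors' deposited table. Antisense overlap concerns 1.57% of the exon bases of Nedd4l (277 bases, A330084C13Rik), which held the pair of 3p matches named above.

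The cotransporters had the folds farthest from 0, in opposite directions. Slc12a1 (chromosome 2, 125152505 to 125230002, plus strand) had a fold of -0.70 ± 0.43 on the log2 scale in the authors' deposited table (unadjusted p = 0.103), a linear fold of 0.617 with an approximate 95% interval of 0.346 to 1.10. Slc12a3 (chromosome 8, 94329201 to 94366214, plus strand) had -0.67 ± 0.45 (unadjusted p = 0.141), a linear fold of 0.630 with an interval of 0.340 to 1.17, in the same table. Both intervals hold a linear fold of 1 and lie mostly below it.

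Slc12a2 stood on the other side. This gene for NKCC1 (chromosome 18, 57878678 to 57946821, plus strand) had a fold of 0.39 ± 0.20 on the log2 scale in the authors' deposited table, a linear fold of 1.31 with an approximate 95% interval of 0.996 to 1.71. Its unadjusted p of 0.0531 was the lowest among the members, at rank 1044 of all genes, and its adjusted p was 1. The log2 fold of Slc12a1 lay 1.08 below that of Slc12a2, and that of Slc12a3 lay 1.05 below it. These differences carry no test, because the covariance of the genes across animals is not known without values per library. Slc12a1 and Slc12a3 differed by 0.03 in log2 fold, with SEs of 0.43 and 0.45. The part of the seed matches in these folds was not tested.

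**Figure D2:**
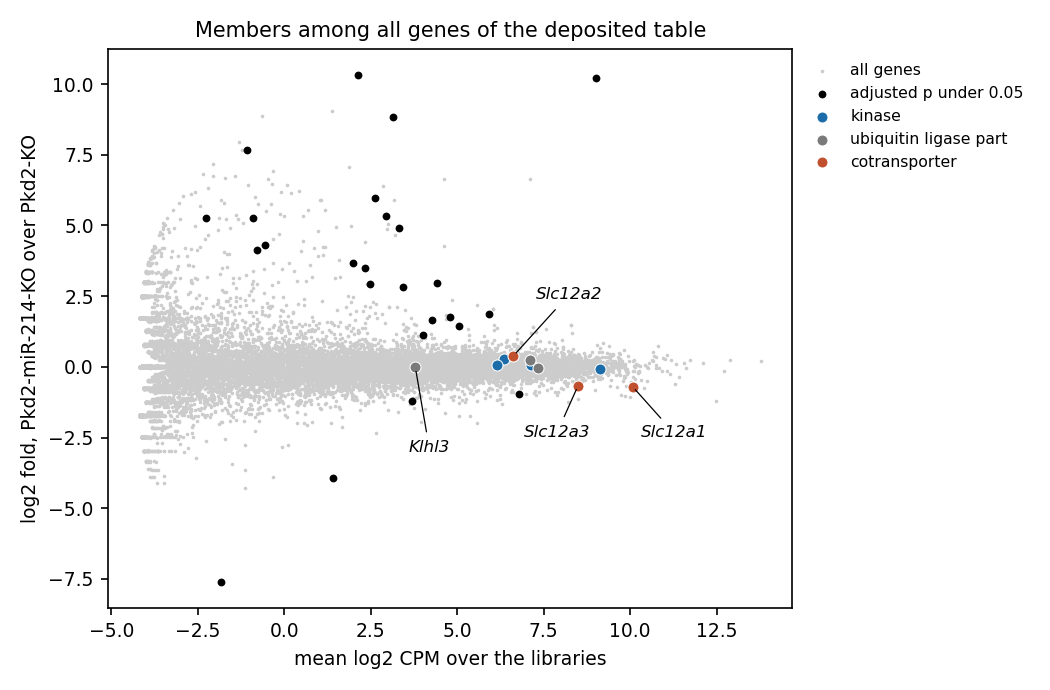
Each grey point is a gene of the authors' deposited table, with its mean log2 CPM on the x axis and its log2 fold (Pkd2-miR-214-KO over Pkd2-KO) on the y axis; black points are the 25 called genes and coloured points the pathway genes. Slc12a1 and Slc12a3 have the lowest folds of the pathway genes and lie at high expression. Some genes of like expression, such as Egf and Miox, lie lower.

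Among expressed genes the cotransporter folds were sizeable but not rare. Of the 14520 genes with a mean log2 CPM of at least 0, 5.23% had a log2 fold larger in size than that of Slc12a1, 5.69% one larger than that of Slc12a3 and 15.1% one larger than that of Slc12a2. That set includes genes of far lower level than Slc12a1 and Slc12a3, and the shares among genes of like level were not computed. The errors of the cotransporters differed as well. The SE of Slc12a3 was above that of 97.3% of the 450 genes within 0.5 log2 CPM of it, and the SE of Slc12a1 was above that of 90.4% of 73 such genes. Slc12a2 lay at 27.9% of 2135 genes of like level, and Oxsr1 at 9.23% of 2600, the lowest place among the members. The folds of Slc12a1 and Slc12a3 were thus less precise than those of most genes of like level, and that of Slc12a2 was not. The spread between animals behind these errors cannot be read without values per library.

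**Figure D3:**
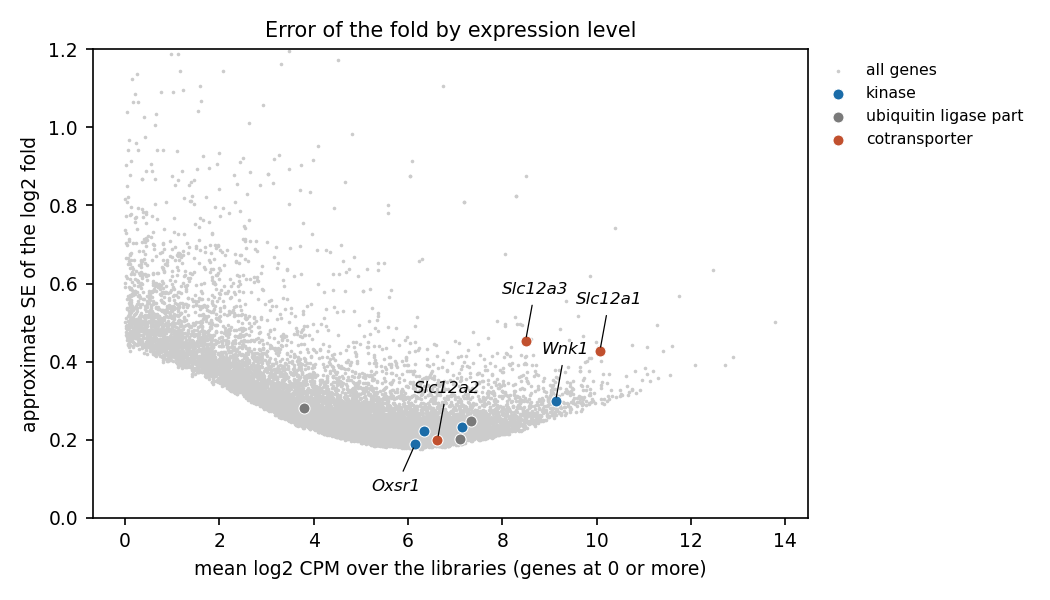
Approximate SE of the log2 fold (y axis) against mean log2 CPM (x axis) for genes at a mean log2 CPM of 0 or more; grey points are all genes and coloured points the pathway genes. Slc12a3 (0.45) and Slc12a1 (0.43) lie above the mass of genes of like level, and 46 genes with an SE above 1.2 fall outside the axis.

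The size of observed fold that could have been called follows from these errors. The called gene with the weakest evidence had a likelihood ratio of 16.1, which is a fold of 4.02 SE. At its own SE, Slc12a3 would have needed a linear fold of about 3.53 in either direction, Slc12a1 3.28, Wnk1 2.30, Klhl3 2.19 and Nedd4l 1.99. The other members would have needed linear folds from 1.69 (Oxsr1) to 1.91 (Wnk4), with Slc12a2 at 1.74. At these SEs, from 3 animals per genotype, smaller observed folds would not have been called. These sizes are not limits on the true change, and an adjusted p of 1 does not show that a gene was equal in the genotypes.

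Markers of the segments that make these cotransporters were set beside them. Thick ascending limb markers, the segment of Slc12a1, had negative log2 folds for 10 of 12 genes and a median of -0.36, with 0 past the adjusted threshold and 3 with an unadjusted p under 0.05. Those 3 were Ppp1r1a (-0.99 ± 0.38), an inhibitor of protein phosphatase 1, Cldn19 (-0.58 ± 0.23), a claudin of the paracellular cation pathway, and Egf (-1.05 ± 0.45), a growth factor precursor also made in the distal convoluted tubule, in the authors' deposited table. Cldn10, another claudin of this segment, had -0.57 ± 0.30 in the authors' deposited table, and Umod, its most abundant product, -0.35 ± 0.43. Among the members of the list without a negative sign was Ptger3 (0.03 ± 0.26), a prostaglandin receptor, in that table.

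The distal convoluted tubule list, the segment of Slc12a3, had a median closer to 0, and the difference between the lists was not tested. Of 12, 7 had negative and 4 positive log2 folds with a median of -0.08, and 0 passed with or without adjustment. Slc12a3 had -0.67, and its difference from the list was not tested. The list is not wholly particular to this segment, since Hsd11b2 is also counted as a principal cell marker of the collecting duct. Pvalb, the calcium buffer of the early distal convoluted tubule, is listed with a fold and a likelihood ratio of exactly 0 at a mean log2 CPM of 2.89. It is 1 of 2 genes listed so at a mean log2 CPM of 0 or more, and its level in the genotypes was not analysed further. The smallest p-values of this list belonged to Trpm6 (0.44 ± 0.27), the apical magnesium channel, Hsd11b2 (-0.48 ± 0.31), the enzyme that shields the mineralocorticoid receptor, Trpv5 (-0.32 ± 0.22), a calcium channel, and Fxyd2 (-0.43 ± 0.37), a sodium pump subunit, in the authors' deposited table. Genes of distal magnesium and calcium handling, a list that shares several of these, had 7 positive and 9 negative log2 folds of 17, a median of -0.08, 0 past the adjusted threshold and 1 (Egf) at an unadjusted p under 0.05.

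**Figure D4:**
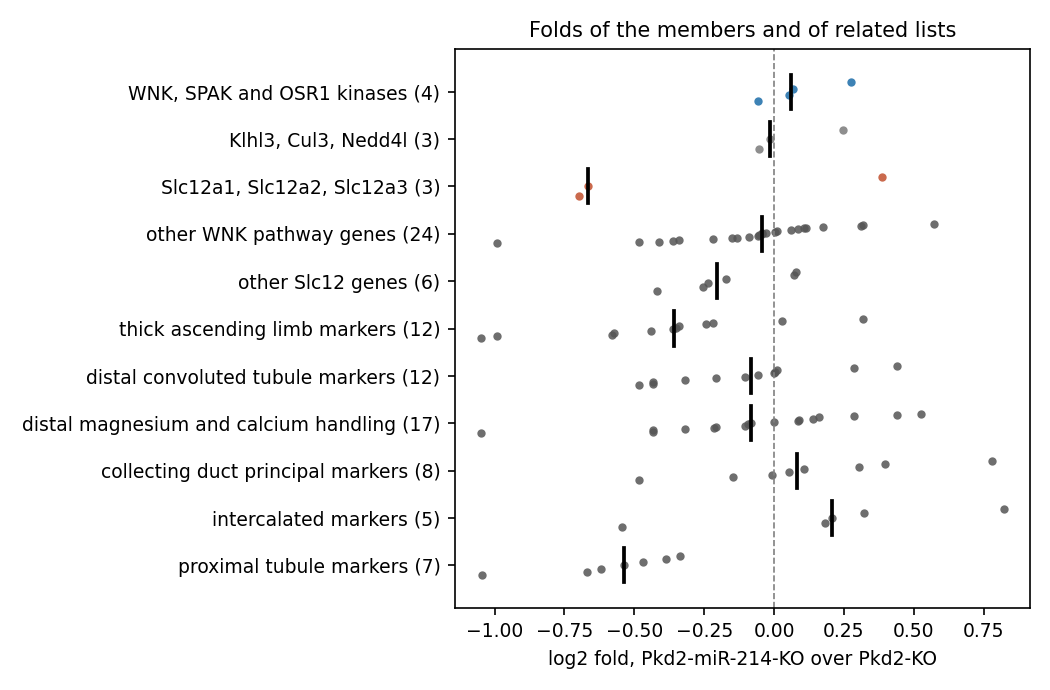
Points are the log2 folds of single genes in the authors' deposited table (Pkd2-miR-214-KO over Pkd2-KO) by list, with the number of genes in brackets, and black bars are medians; some genes stand in more than one list. Slc12a1 and Slc12a3 fall among the lower thick ascending limb and proximal tubule markers, and the medians of the other pathway lists lie between -0.20 and 0.06.

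Markers of other tubule cells are set beside the cotransporters as well. All 7 proximal tubule markers had negative log2 folds with a median of -0.54 and 0 past either threshold, led by the smallest p-values of Miox (-1.05 ± 0.62), Slc5a2 (-0.67 ± 0.41), Slc22a6 (-0.47 ± 0.35) and Slc34a1 (-0.62 ± 0.49) in the authors' deposited table. Principal cell markers of the collecting duct had 5 positive and 3 negative log2 folds (median 0.08) and intercalated cell markers 4 positive and 1 negative (median 0.21), with 0 past the adjusted threshold in both lists. At an unadjusted p under 0.05 each of these lists had 1 gene, Scnn1a (0.78 ± 0.34), a subunit of the epithelial sodium channel, and Atp6v0d2 (0.82 ± 0.26), a proton pump subunit, in the authors' deposited table. Macula densa markers, from cells that also use NKCC2, had Avpr1a at 0.51 ± 0.31, Ptgs2 at 0.43 ± 0.35 and Nos1 at -0.63 ± 0.61 in the authors' deposited table. In whole-kidney RNA, fewer cells of a segment and less RNA per cell cannot be told apart, and the part of cell makeup in the cotransporter values was not tested.

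Leukocyte, fibroblast, endothelial and podocyte markers were examined as possible admixtures. Leukocyte markers had 2 positive and 3 negative log2 folds (median -0.03) and fibroblast markers 1 positive and 3 negative (median -0.31), with 0 past the adjusted threshold in both. At an unadjusted p under 0.05 each list had 1 gene in the authors' deposited table. These were Cd79a of B cells (3.77 ± 1.11, unadjusted p = 0.000664, adjusted p = 0.202) and Dcn, a matrix proteoglycan (1.18 ± 0.31, unadjusted p = 0.000152, adjusted p = 0.102), both in the authors' deposited table, and their part in the cotransporter values was not tested. Endothelial markers had a median of -0.06 and podocyte markers one of 0.14, each with 3 genes and 0 past either threshold. Among these markers Cd3e of T cells had the lowest level, at a mean log2 CPM of 1.10.

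The rest of the pathway also had 0 calls, where 0.124% of all genes were called and 4.82% had an unadjusted p under 0.05. At these shares, the counts in a list of this size do not set it apart from other genes. Of 24 other genes of WNK signalling and its distal targets, 10 had positive and 14 negative log2 folds with a median of -0.04, 0 passed the adjusted threshold and 1, Ppp1r1a, had an unadjusted p under 0.05 (0.00814). Next came Sgk1, the aldosterone-induced kinase that restrains NEDD4L, with 0.57 ± 0.30 (unadjusted p = 0.0565) in the authors' deposited table. The scaffold genes that bind and activate SPAK and OSR1 had log2 folds of 0.31 ± 0.21 (Cab39) and 0.11 ± 0.23 (Cab39l) in the authors' deposited table. The remaining WNK kinases were weakly expressed, with log2 folds of -0.41 ± 0.35 for Wnk2 and -0.15 ± 0.43 for Wnk3 in the authors' deposited table at a mean log2 CPM of 2.64 and 1.44.

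Parts of the ligase machinery lay close to 0. In the authors' deposited table the log2 folds were -0.03 ± 0.20 for Klhl2, a relative of Klhl3 that also binds WNK kinases, 0.09 ± 0.26 for Rbx1, the RING subunit, and -0.13 ± 0.20 for Nedd8, the modifier that activates cullins. Cand1 (-0.05 ± 0.19), which exchanges cullin adaptors, and Cops5 (0.06 ± 0.21), the protease that removes NEDD8, lay in the same range in the authors' deposited table, as did Nedd4 (-0.09 ± 0.28), the relative of Nedd4l.

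Basolateral and apical channels that set chloride and potassium for the WNK kinases did not pass either. In the authors' deposited table Kcnj10 had a log2 fold of -0.06 ± 0.26 and its partner Kcnj16 one of 0.01 ± 0.28, the pair that forms the basolateral potassium channel of the distal convoluted tubule. Bsnd, a subunit of basolateral chloride channels, had -0.34 ± 0.26 and Kcnj1, the apical potassium channel ROMK, had -0.36 ± 0.28 in the authors' deposited table. Phosphatase genes lay near 0, with 0.00 ± 0.22 for Ppp1ca, 0.11 ± 0.19 for Ppp3ca and 0.17 ± 0.21 for Ppp3cb, the last pair encoding catalytic subunits of calcineurin, which acts against NCC phosphorylation, in the authors' deposited table. Sorl1, a sorting receptor that acts on NKCC2, had -0.04 ± 0.24 and Nr3c2, the mineralocorticoid receptor gene, -0.04 ± 0.25 there.

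The other Slc12 genes, most of which encode potassium-chloride cotransporters that carry chloride out of cells and are switched off by WNK signalling, had a median log2 fold of -0.20. Of these 6 genes, 2 had positive and 4 negative folds, and 0 passed with or without adjustment. In the authors' deposited table the values were -0.25 ± 0.20 for Slc12a4 and -0.17 ± 0.20 for Slc12a7, both of them KCC genes. Slc12a5, the KCC of neurons, had -0.42 ± 0.44 at a mean log2 CPM of 1.04, Slc12a8 0.08 ± 0.44 at 0.70 and Slc12a9 -0.23 ± 0.26 at 4.23 in the authors' deposited table.

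Levels of the members were compared per length, as mean CPM over all libraries per kilobase of exon. Slc12a1 was the most abundant under either gene length, with 187 CPM per kilobase over the union of annotated exons and 227 over the longest transcript. Klhl3 was the least abundant with 1.89 and 1.93 CPM per kilobase under the same lengths. Slc12a3 had 32.4 CPM per kilobase over the union of exons and 83.7 over the longest transcript, since the union spans 11119 bases and the longest transcript 4310. Per kilobase, the level of Slc12a1 was thus 5.75 times that of Slc12a3 by the first length and 2.71 times by the second.

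The order between these ends depended on the length used. Over the union of exons Wnk4 (34.0 CPM per kilobase), Slc12a3, Cul3 (28.4) and Wnk1 (24.6) followed Slc12a1, and over the longest transcript the order was Slc12a3, Wnk1 (49.5), Wnk4 (34.3) and Cul3 (29.4). Stk39 had 16.4 and 23.0 CPM per kilobase under these lengths, and Oxsr1 13.3 and 15.3. Nedd4l had 9.10 and 20.6, and Slc12a2 9.04 and 15.1. Without a spread over libraries, neighbours such as Nedd4l and Slc12a2 or Stk39 and Oxsr1 cannot be said to differ. The level of Klhl3 lay well apart, with Cul3, its partner in the ligase, at 15.0 times its CPM per kilobase over the union of exons.

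**Figure D5:**
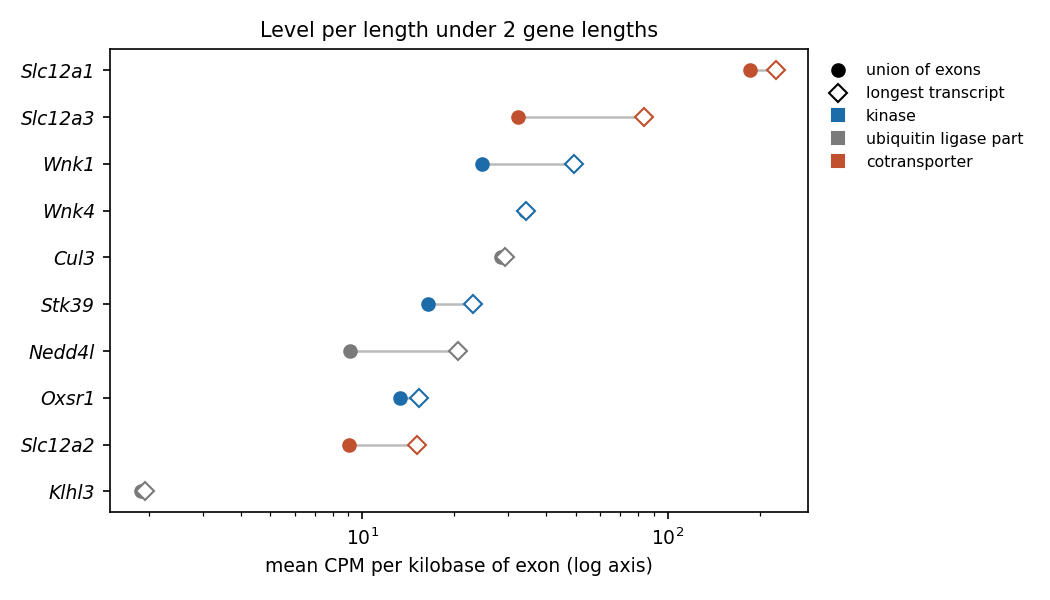
Mean CPM per kilobase of exon (x axis, log scale) for each pathway gene, with filled circles for the union of annotated exons and open diamonds for the longest transcript. Slc12a1 is highest (187 and 227) and Klhl3 lowest (1.89 and 1.93) by both lengths, and Slc12a3 (32.4 and 83.7) and Nedd4l (9.10 and 20.6) lie farthest apart between them.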

How the data were processed

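Whole-kidney RNA of 6 mice was sequenced. The labels name a stranded kit for total RNA and the series text speaks of polyA RNA, so the selection step is unsettled. TopHat2 2.0.12, edgeR and the build mm10 are named in the submitters' processing notes, while the sources used here do not give settings, filters or whether counting used strand. The authors deposited 1 table of 20138 genes with, per the file headers, a log2 fold, a mean log2 CPM, a likelihood ratio (a score on 1 degree of freedom), its p-value and that p-value after adjustment. The chi-square tail of the deposited ratio gave the p-value to within 6.25e-15, and the Benjamini-Hochberg adjustment over all genes gave the adjusted one to within 5.10e-14. Values per library and their depth were not analysed here, so no test per gene was added. The SE was the fold's size divided by the root of the likelihood ratio, with intervals of 1.96 SE to each side; this is approximate, above all at low counts. "Needed" folds were the SE times the square root of the smallest called ratio. Genes of like level were those within 0.5 log2 CPM.

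Exon lengths, positions and 3′ UTRs came from GENCODE M21 (the assembly of mm10), and all 10 symbols matched. The members and lists were chosen with earlier results of these data known. Named were the 10 members, the targeted loci, the genes of the WNK and Slc12 lists and, from each other list, up to 4 genes of smallest p; Umod, Aqp2, Ptger3, Pvalb and the sex-linked genes were added after their values were seen. Some genes under this rule are counted in their lists but not reported here. The search of member proteins for docking motifs was not run. Scripts were tested on simulated data with Python 3.11.15, numpy 2.4.6, pandas 2.3.3, scipy 1.17.1 and matplotlib 3.10.9.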

Additional observations from a re-analysis of the deposited data

How the results depend on the processing

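The count of pathway genes past an adjusted p under 0.05 was 0 under each alternative run: adjustment over the genes with a mean log2 CPM of at least 0 or at least 1, Benjamini-Yekutieli adjustment, and the likelihood ratio referred to an F distribution on 1 and 4 degrees of freedom. Each gave an adjusted p of 1 for every member. Over all genes, 19 were called with either minimum, 14 with Benjamini-Yekutieli adjustment and 0 with the F distribution, whose tail is heavier by construction, against 25 as deposited. Centring the folds on the median of all genes (0) or of expressed genes (-0.0022) changed no member's sign, and the members' median log2 fold was 0.06 without Slc12a1 and Slc12a3, against 0.02 with them. Among the members' 3′ UTRs, 4 matches to the 3p seed became 0 with 8-base sites and 14 with 6-base sites, as the lengths imply. With the longest transcript, 4 levels per kilobase moved by over 1.5 times: Wnk1 (49.5 against 24.6), Nedd4l (20.6 against 9.10), Slc12a2 (15.1 against 9.04) and Slc12a3 (83.7 against 32.4). No paired analysis was possible because the labels give no replicate numbers and values per library were not analysed here. For the same reason no animal could be left out in turn.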
